A study of Mus musculus with 15 samples.

Results

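The 6 genes of the Tet and Dnmt families (Tet1, Tet2, Tet3, Dnmt1, Dnmt3a and Dnmt3b) were followed through the conversion of pre-B cells into macrophage-like cells, out of 22350 protein-coding genes annotated on chromosomes 1 to 19 and X. They were chosen by family, with the H3K27Ac tags of a strongly gained window far upstream of Tet2 already known. The 150 kb upstream reach used below was also set with it known. The values of that window, and window counts that include it, are therefore given as a description. The data are 15 chromatin immunoprecipitation sequencing (ChIP-seq) libraries labelled as C10 cells for 3 histone marks, H3K27Ac, H3K4Me1 and H3K27Me3, at 0, 3, 12, 24 and 48 h post-induction (hpi), with 1 library per mark and time. C10 is a GFP-marked line derived from HAFTL mouse pre-B cells, and cells of all 5 times carry C/EBPαER, a fusion that lets estrogen switch on C/EBPα. By the labels, induced cells received 100 nM β-estradiol (the study's written methods give a higher concentration) and were grown with IL-3 and CSF-1 at 10 nM each, and control cells received the solvent, 0.1% ethanol. With 1 library per group there was no test between times: intervals below are exact 95% intervals of the counted tags and cover counting error only.

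DNA methyltransferases place methyl groups on cytosines, mostly where a C is followed by a G. Dnmt1 copies the pattern after replication, while Dnmt3a and Dnmt3b write it on unmethylated DNA. Tet enzymes oxidise methylcytosine, which opens a path back to cytosine, and in blood TET2 and DNMT3A are known as genes that are often mutated in clonal and malignant myeloid growth. H3K27Ac marks active promoters and enhancers, H3K4Me1 marks enhancers whether poised or active, and H3K27Me3 marks regions repressed by Polycomb.

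Tags were counted in 3 kb windows after the libraries of a mark had been thinned to equal depth, and a level is the count over the genome mean of a 3 kb window, which was 18.3 tags for H3K27Ac, 13.1 for H3K4Me1 and 18.4 for H3K27Me3. The deposited libraries held between 11.04 and 31.56 M tags. The H3K27Ac libraries of 0 and 3 hpi stood apart from the other 13 libraries: in a 36 kb stretch of the immunoglobulin heavy chain region (mm9 chr12:114693001-114729000) they held 417 and 315 tags, against 2 tags in all the others together. Whether these libraries come from the same cells as the other 13 was not tested, and in H3K27Ac changes from 0 or 3 hpi to a later time, or beside another mark at these times, time after induction and whatever sets the libraries apart cannot be told apart. Most H3K27Ac changes are therefore also given for 12 against 48 hpi, which leaves both libraries out. The cell identity labels were checked at gene starts: all 7 B lineage markers with a single gene record fell at least 2-fold in H3K27Ac (5 with scaling by windows enriched at all times) and all 7 macrophage markers rose, of which 3 and 2 passed 2-fold from 12 to 48 hpi, while the 4 T lineage starts stayed at or below 24 tags. Of the erythroid markers Klf1 held 72 to 103 tags and the other 3 at most 7, and the starts of Actb, Gapdh and Tbp changed by -0.79 to 0.48 on the log2 scale.

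The sequences of 2 regulatory stretches are shown first because they lie in the H3K27Ac windows with the largest tag numbers gained and lost in the 6 gene regions. Each is the 300 bases around the deepest dip of H3K27Ac inside its window, read from mm9 on the plus strand, and capitals mark matches to TTGCNNAA (C/EBP), GAGGAAGT (PU.1), TGANTCA (AP-1) or TGTGGTT (RUNX) on either strand. The first lies between genes upstream of Tet2 (chr3:133289451-133289750), and the second in an intron of Dnmt3a (chr12:3856201-3856500).

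Tet2 upstream site: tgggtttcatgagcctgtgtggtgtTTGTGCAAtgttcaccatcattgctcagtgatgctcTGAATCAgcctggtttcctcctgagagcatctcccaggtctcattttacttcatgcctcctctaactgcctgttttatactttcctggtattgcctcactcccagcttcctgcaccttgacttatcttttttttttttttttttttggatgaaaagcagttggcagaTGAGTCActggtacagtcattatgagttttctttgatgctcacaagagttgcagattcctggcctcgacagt
Dnmt3a intron site: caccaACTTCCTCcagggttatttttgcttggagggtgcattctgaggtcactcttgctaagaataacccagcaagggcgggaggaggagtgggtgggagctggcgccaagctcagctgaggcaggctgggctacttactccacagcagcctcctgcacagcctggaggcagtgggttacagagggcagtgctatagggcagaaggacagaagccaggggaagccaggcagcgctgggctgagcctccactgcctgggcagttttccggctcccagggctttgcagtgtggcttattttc

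The Tet2 stretch held 1 C/EBP match and 2 AP-1 matches that do not overlap, and the Dnmt3a stretch held 1 PU.1 match. Among stretches taken in the same way from all gained H3K27Ac windows near protein-coding genes, 16.8% held the C/EBP letters and 17.2% the AP-1 letters, against 10.9% and 8.2% of lost windows. The PU.1 letters were in 4.67% of gained and 3.86% of lost windows, and the RUNX letters in 11.1% and 10.1%. A match describes the letters of a stretch and no binding was measured here.

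The next sequences are the 250 bases before 4 starts, on the strand of the gene, with each CG pair in capitals, because CG pairs are what these enzymes act on and the starts differ widely in them. They are mm9 chr3:133207355-133207604 (Tet2, minus strand), chr9:20757318-20757567 (Dnmt1, minus strand), chr12:3805757-3806006 (the 5′ end of the Dnmt3a record, plus strand) and chr12:3891478-3891727 (an internal Dnmt3a start, plus strand).

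Tet2 start: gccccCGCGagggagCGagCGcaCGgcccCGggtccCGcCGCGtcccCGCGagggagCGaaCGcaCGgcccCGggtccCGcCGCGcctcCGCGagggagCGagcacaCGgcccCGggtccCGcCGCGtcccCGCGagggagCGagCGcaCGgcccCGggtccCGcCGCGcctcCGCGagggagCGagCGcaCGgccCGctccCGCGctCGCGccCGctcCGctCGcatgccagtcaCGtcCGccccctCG
Dnmt1 start: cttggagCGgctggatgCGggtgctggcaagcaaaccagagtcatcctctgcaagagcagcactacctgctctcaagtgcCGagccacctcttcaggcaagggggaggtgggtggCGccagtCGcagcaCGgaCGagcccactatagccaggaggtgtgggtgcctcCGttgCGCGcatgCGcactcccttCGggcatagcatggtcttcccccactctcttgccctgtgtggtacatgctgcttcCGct
Dnmt3a start: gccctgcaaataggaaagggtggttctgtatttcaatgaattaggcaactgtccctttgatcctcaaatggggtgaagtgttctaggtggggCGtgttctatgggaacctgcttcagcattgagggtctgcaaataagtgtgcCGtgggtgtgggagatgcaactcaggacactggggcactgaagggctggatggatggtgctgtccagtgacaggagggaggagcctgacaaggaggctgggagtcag
Dnmt3a internal start: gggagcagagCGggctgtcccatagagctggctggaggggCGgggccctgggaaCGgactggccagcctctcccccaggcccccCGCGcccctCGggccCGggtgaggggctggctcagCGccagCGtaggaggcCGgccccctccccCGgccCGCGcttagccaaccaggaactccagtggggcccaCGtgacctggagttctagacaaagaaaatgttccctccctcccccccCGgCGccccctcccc

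The Tet2 stretch held 51 CG pairs, and 99.9% of 22345 protein-coding starts held fewer, with a median of 8. The Dnmt1 stretch held 13, the Dnmt3a record start 2 and the internal Dnmt3a start 16. Of the starts not printed, Dnmt3b held 21 CG pairs, Tet3 17 and Tet1 4. None of the 4 motifs lay in the 250 bases before Tet1, Tet2, Tet3, Dnmt1 or Dnmt3b, and the Dnmt3a record start held 1 C/EBP match, as did 9.17% of all starts.

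At the starts, H3K27Ac rose at Tet2 and fell at Dnmt1 and, by less, at Dnmt3a and Dnmt3b, while Tet1 carried almost none. A start was called higher or lower when its tags plus 1 changed at least 2-fold between 0 and 48 hpi and its level reached 4 times the genome mean at either time (2 times for H3K27Me3). By this rule 1 of 6 members was higher in H3K27Ac and 2 were lower, beside 2.41% and 7.07% of all protein-coding starts. With either other scaling 1 was higher and 1 lower, as Dnmt3a then missed the 2-fold limit. Dnmt3b (log2 change -0.92) lay just under that limit, with an interval that overlaps that of Dnmt3a (-1.09). Between 12 and 48 hpi no member was higher and 1 was lower, beside 0.85% and 2.89%, and either other scaling takes that fall under 2-fold. In H3K4Me1 no member was higher and 1 was lower, beside 1.94% and 2.88%. In H3K27Me3 no member was called in either direction, beside 0.559% and 0.251%. The median H3K27Ac log2 change was -1.01 over the members, Tet1 with its few tags included, and -0.17 over all starts. Over all starts at the level minimum it was -0.28, and 5.37% of these were higher and 15.7% lower. Other scalings shift the log2 changes of a mark by about the same amount, less where tags are few. Scaling by windows enriched at all 5 times adds 0.34 to H3K27Ac, 0.12 to H3K4Me1 and -0.16 to H3K27Me3, and scaling by background windows adds 0.12, 0.76 and 0.18.

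**Figure D1:**
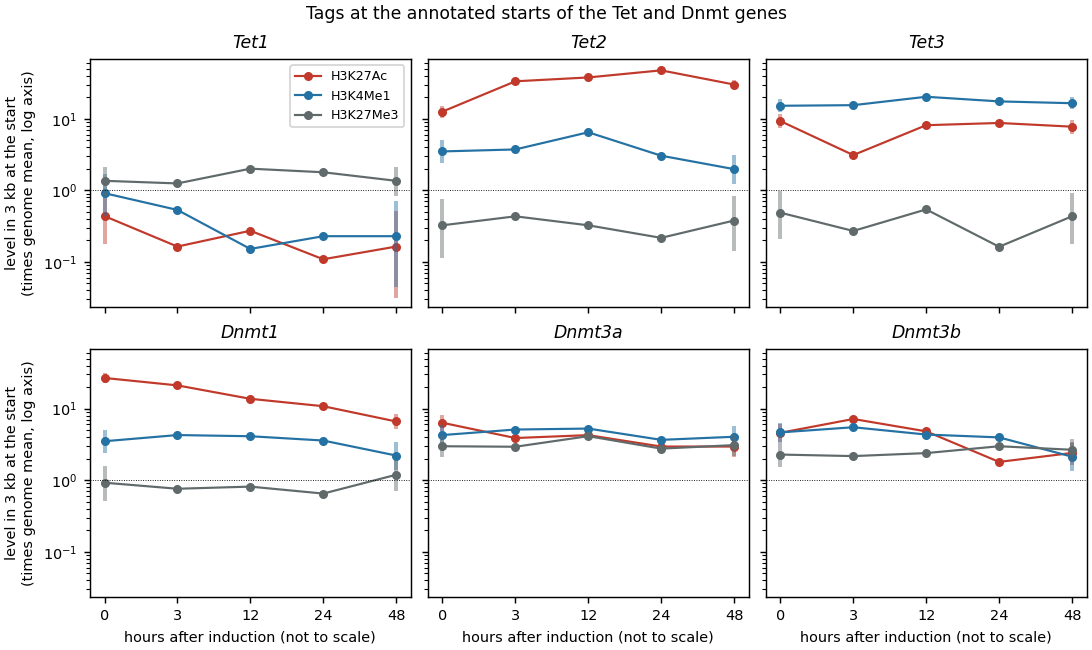
Level in the 3 kb at each annotated start (tags over the genome mean, log axis) by time after induction for 3 marks, 1 library per point; vertical bars at 0 and 48 hpi are exact Poisson 95% intervals and the dotted line is the genome mean. H3K27Ac at Tet2 went from 12.6 to 30.1 times the mean and at Dnmt1 from 26.8 to 6.61, while Tet1 stayed below the mean.

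Tet2 (ENSMUSG00000040943.7, mm9 chr3:133126643-133207354, minus strand), the Tet enzyme whose loss is frequent in myeloid disease, held 230, 611, 692, 870 and 551 H3K27Ac tags at its start at 0, 3, 12, 24 and 48 hpi. The start was already well acetylated in pre-B cells and reached its highest value at 24 hpi. The log2 change from 0 to 48 hpi was 1.26 (1.04 to 1.49), and from 0 to 3 hpi, between the pair of libraries that share the heavy chain signal, it was 1.41. From 12 to 48 hpi it was -0.33: the tags were higher at 24 than at 12 hpi and lower again at 48 hpi. In the central 1 kb the log2 change was 0.84, under the 2-fold limit. H3K4Me1 at the start, 46, 49, 85, 40 and 26 tags, peaked at 12 hpi. H3K27Me3 stayed between 4 and 8 tags, under the genome mean at every time.

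Dnmt1 (ENSMUSG00000004099.8, chr9:20711650-20757317, minus strand), the maintenance methyltransferase, went the other way. Its start held 490, 387, 250, 198 and 121 H3K27Ac tags, a fall at each successive time. The log2 change was -2.01 (-2.32 to -1.73), a 4.02-fold decrease, and -1.04 from 12 to 48 hpi, so the loss also stood in the 3 later libraries. With either other scaling the fall from 12 to 48 hpi remains but misses the 2-fold limit. Only 3.0% of all protein-coding starts had a lower log2 change. Uhrf1, which guides Dnmt1 to newly copied DNA, fell beside it, with 524, 492, 279, 110 and 77 tags and log2 changes of -2.75 from 0 hpi and -1.84 from 12 hpi. H3K4Me1 at the Dnmt1 start went from 46 to 29 tags, a log2 change of -0.65 that background scaling turns to 0.10, and H3K27Me3 lay between 12 and 22 tags, neither reaching the level minimum at 0 or 48 hpi.

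Dnmt3a (ENSMUSG00000020661.9, chr12:3806007-3914443, plus strand), a writer of new methylation that is also made in a shorter form from inside the gene, was marked more strongly inside the gene than at its 5′ end. The 5′ end held 116, 71, 78, 54 and 54 H3K27Ac tags (log2 change -1.09, -1.60 to -0.63), with H3K27Me3 at 51 to 76 tags, 2.98 and 3.09 times the genome mean at 0 and 48 hpi. The internal start 86 kb downstream (transcript Dnmt3a-005, position 3891728) held 762, 483, 583, 598 and 360 H3K27Ac tags. Its log2 change was -1.08 (-1.27 to -0.90), and its H3K27Me3 stayed between 2 and 9 tags. A further start 55 kb downstream (Dnmt3a-007) held 155, 42, 53, 53 and 73 H3K27Ac tags beside 194, 147, 131, 135 and 177 H3K4Me1 tags. Both marks were lower at 3 hpi, and H3K4Me1 was nearer its first value at 48 hpi. With background scaling H3K4Me1 stays near its first value at 3 hpi and ends above it. A start 89 kb downstream (Dnmt3a-011) went from 81 to 55 tags, under the 2-fold limit. From 12 to 48 hpi the H3K27Ac log2 change was -0.52 at the 5′ end, -0.69 at Dnmt3a-005, 0.45 at Dnmt3a-007 and -0.03 at Dnmt3a-011. In that interval none of these starts fell 2-fold, and with either other scaling the falls there and at both internal starts miss the 2-fold limit.

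Dnmt3b (ENSMUSG00000027478.9, chr2:153475186-153513466, plus strand), the other writer of new methylation, held 84, 131, 88, 33 and 44 H3K27Ac tags at its start, so a peak at 3 hpi preceded low values at 24 and 48 hpi. The log2 change of -0.92 (-1.49 to -0.39) lay just under the 2-fold limit, and from 12 to 48 hpi it was -0.98. Its H3K4Me1, 61, 72, 57, 52 and 28 tags, was the only member start called lower in that mark (-1.10, -1.82 to -0.46). This call is lost with either other scaling and with a 1 kb or 6 kb window. H3K27Me3 held 42, 40, 44, 55 and 49 tags, 2.28 to 2.66 times the genome mean at 0 and 48 hpi. An antisense gene, 7530422B04Rik, overlaps this start, and tags carry no strand.

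Tet3 (ENSMUSG00000034832.8, chr6:83312367-83391672, minus strand) held 170, 57, 149, 160 and 142 H3K27Ac tags at its annotated start, a dip at 3 hpi to a level below every other time. The change from 0 to 48 hpi was -0.26 (-0.59 to 0.07), an interval that includes no change, 0.08 with scaling by enriched windows, and -0.07 from 12 hpi. The dip came to a log2 change of -1.56 between the 0 and 3 hpi libraries, and such a fall below both end points was found at 0.21% of all starts. H3K4Me1 was high throughout, with 199, 204, 266, 230 and 217 tags, and 99.6% of starts held less at 0 hpi. H3K4Me1 showed no such dip at 3 hpi, and H3K27Me3 lay between 3 and 10 tags. An exon of another gene, B230319C09Rik, overlaps the 250 bases before this start, and tags carry no strand.

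Tet1 (ENSMUSG00000047146.8, chr10:62267318-62361866, minus strand), the family member known from embryonic stem cells, held 8, 3, 5, 2 and 3 H3K27Ac tags and 12, 7, 2, 3 and 3 H3K4Me1 tags. These are below the genome mean, and the intervals of the log2 change were wide, -3.96 to 0.64 for H3K27Ac and -4.47 to -0.11 for H3K4Me1. With background scaling the H3K4Me1 interval was -3.12 to 0.35, which includes no change, and from 12 to 48 hpi the H3K27Ac log2 change was -0.58 on these few tags. H3K27Me3 held 25, 23, 37, 33 and 25 tags, a log2 change of 0.00 (-0.86 to 0.86). At 3 further annotated starts inside the gene, named after their values were seen, H3K27Me3 lay between 42 and 62 tags (Tet1-201, 19 kb), 47 and 59 (Tet1-002, 34 kb) and 51 and 82 (Tet1-003, 85 kb), and H3K27Ac at 9 tags or fewer.

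The 6 regions, each a gene record with 150 kb before its start, held 447 windows of 3 kb. Windows were called gained or lost by the same rule as the starts. In H3K27Ac 25 were gained and 24 lost, beside 2.79% and 2.07% of the 577384 windows near any protein-coding gene. In H3K4Me1 37 were gained and 19 lost, beside 3.71% and 1.51%. In H3K27Me3 20 were gained and 0 lost, beside 0.735% and 0.172%. Windows at the level minimum numbered 90 for H3K27Ac, 126 for H3K4Me1 and 124 for H3K27Me3. Of all such windows near genes 33.3% were gained and 24.7% lost in H3K27Ac, 31.9% and 13% in H3K4Me1 and 3.77% and 0.88% in H3K27Me3, so the H3K27Ac counts of the 6 regions lay near the share of enriched windows. Scaling by windows enriched at all times changes the split to 32 and 19 for H3K27Ac, 45 and 13 for H3K4Me1 and 9 and 0 for H3K27Me3. Scaling by background windows changes it to 89 and 1 for H3K4Me1. The directions of the regions differed: Tet2 had 9 gained and 1 lost H3K27Ac window, Dnmt3b 0 and 8, and Dnmt3a 1 and 6. The 150 kb reach was set with the gained window 81 kb upstream of Tet2 known. That window and its neighbours at 78 and 84 kb are among the 9, so the Tet2 and summed counts only describe the regions. The Dnmt3a split becomes 4 and 4 with scaling by enriched windows and 2 and 5 by background windows. Dnmt1 had 9 and 6, Tet3 4 and 2, and Tet1 2 and 1. With either other scaling 1 lost window is left for Tet3. Neighbouring windows share peaks, so these counts are not independent observations.

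**Figure D2:**
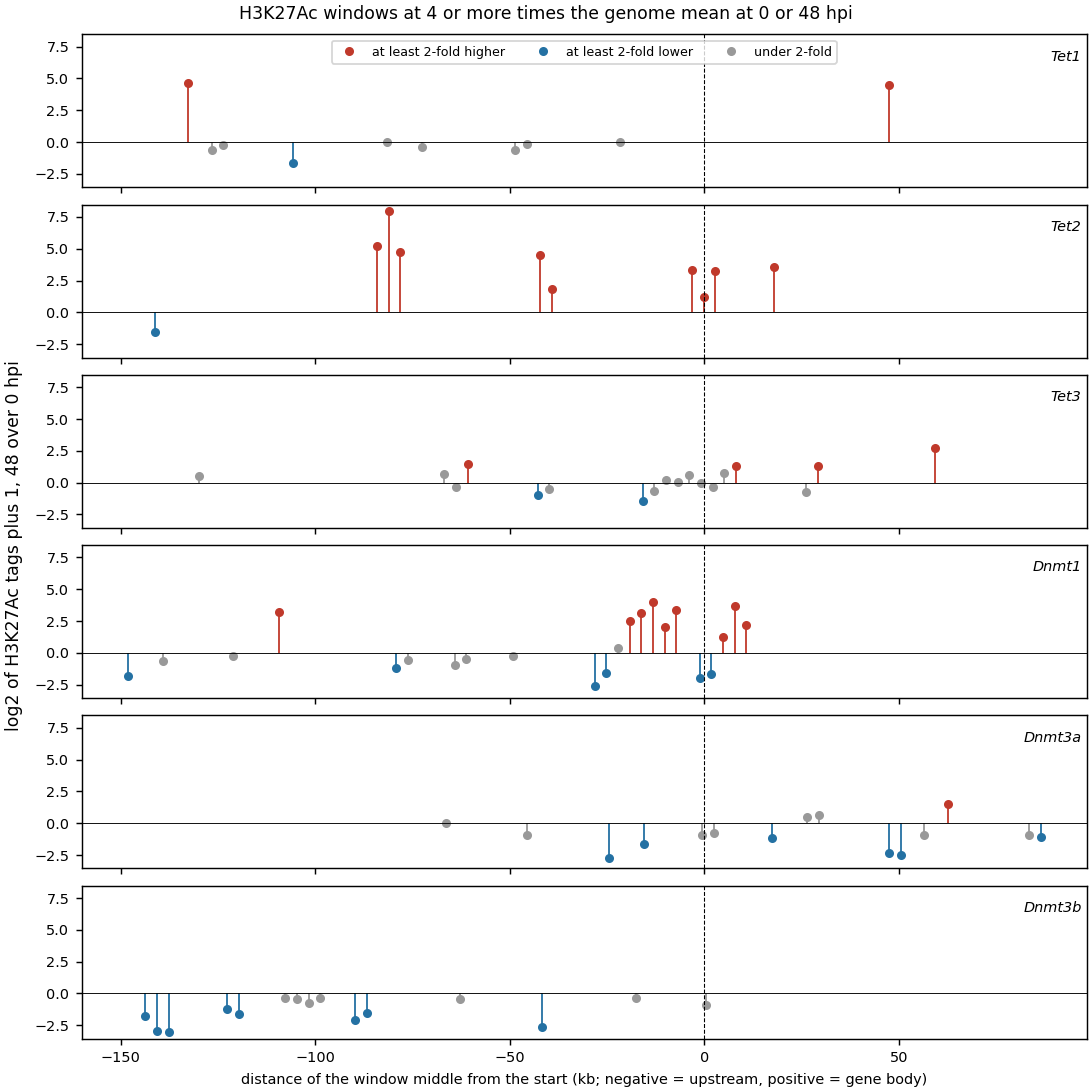
Log2 change of H3K27Ac (tags plus 1, 48 over 0 hpi) of each 3 kb window that reached 4 times the genome mean at 0 or 48 hpi, by distance from the start of each gene, negative upstream. Tet2 shows 9 windows at least 2-fold higher and 1 lower, and Dnmt3b 8 lower and none higher.

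In the Tet2 region 11.8% of windows were gained in H3K27Ac, a share that includes the window known beforehand. The strongest lay about 81 kb before the 5′ end of the gene record (chr3:133287001-133290000), which is also the window that held most H3K27Ac of the region at 48 hpi. It held 3, 328, 657, 1146 and 975 tags, a ratio of 325 (111 to 1579), and ranked 11th among 16101 gained windows near genes. Its strong gain was known before the region was set, so the ratio and rank only describe it. Acetylation was at background at 0 hpi, was present by 3 hpi and was highest at 24 hpi. Scaling by windows enriched at all times (factors 0.998 at 24 hpi and 1.27 at 48 hpi) puts 48 hpi highest in this window. The log2 change from 12 to 48 hpi was 0.57. H3K4Me1 in the same window held 13, 60, 285, 271 and 210 tags, highest at 12 hpi, or at 24 hpi with either other scaling. H3K27Me3 went from 21 to 5 tags.

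Its neighbours moved with it. The window at 78 kb held 15, 299, 460, 715 and 430 H3K27Ac tags and the window at 84 kb held 6, 118, 277, 390 and 255. Their log2 changes from 12 to 48 hpi were -0.10 and -0.12. Together they form a stretch of 6200 bp (chr3:133284801-133291000), enriched without a gap at 48 hpi, in which the tags numbered 24, 724, 1372, 2230 and 1644. It begins 77447 bp before the record's 5′ end, and its middle lies 136265 bp before an internal annotated start (Tet2-201), so the distance depends on the transcript. The internal start held 26 H3K27Ac tags or fewer. No protein-coding gene other than Tet2 lies in the 150 kb, and a small RNA record, SNORA17, starts in the window at 45 kb, which is one of those gained in H3K27Me3. Inside the stretch, a dip near 82 kb, the site of the sequence printed above, held 83 H3K27Ac tags per 200 bases over the 5 times, between flanks of 328 and 276.

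**Figure D3:**
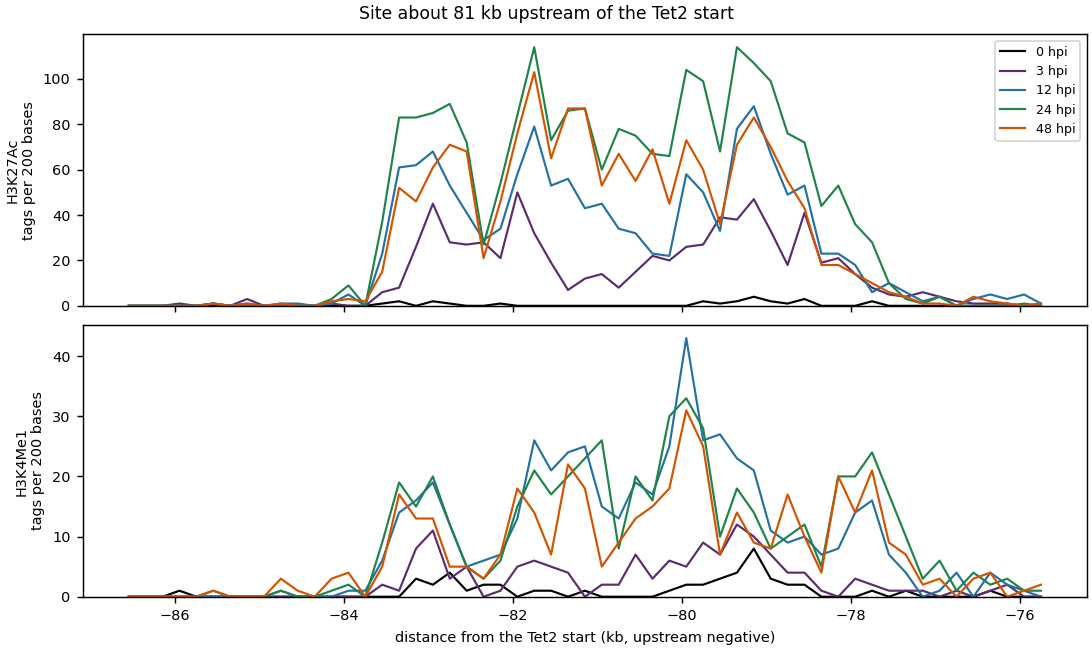
H3K27Ac and H3K4Me1 tags per 200 bases at 5 times across the site about 81 kb upstream of the Tet2 start. At 0 hpi H3K27Ac holds at most 4 tags and H3K4Me1 at most 8 in any bin. Unscaled H3K27Ac tags are highest at 24 hpi, with a dip near 82 kb at 12, 24 and 48 hpi.

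The other gained windows of Tet2 differed in their state at 0 hpi. The window at 39 kb upstream was acetylated before induction and held 139, 509, 695, 897 and 496 tags, and its neighbour at 42 kb held 10, 145, 192, 275 and 255. A window at 18 kb inside the gene rose later than these, with 21, 41, 136, 251 and 256 tags. Near the start acetylation was higher between the end points: the gained window at 3 kb upstream held 10, 222, 291, 367 and 110 tags. The window at 6 kb, which was not called because both ends lay under the level minimum, held 11, 294, 184, 246 and 59. The log2 changes from 12 to 48 hpi were -0.49, 0.41, 0.91, -1.40 and -1.62 for the windows at 39, 42, 18, 3 and 6 kb. The last 2 were among 3 windows of the 6 regions at least 2-fold above both end points, a pattern of 0.496% of windows near genes, and the third lay in Slc25a16 upstream of Tet1. (Windows other than the 3 gained and lost with the largest change were picked after their values were seen.) The 1 lost window, 141 kb upstream, fell from 130 to 13 tags by 12 hpi and stood at 43 at 48 hpi, a log2 change of 1.65 from 12 hpi. Of the 9 gained windows, 8 first passed 2-fold at 3 hpi, and 8 were highest at 24 hpi. Scaling by windows enriched at all times puts 48 hpi highest in the windows at 81 and 42 kb. Scaling by background windows multiplies H3K27Ac tags by 0.784 at 3 hpi and 1.73 at 24 hpi. Timing shares over all gained windows near genes are not given here. The counts include the window known beforehand and its neighbours, so they only describe these windows. The summed tags of the 9 at 12 hpi stood at 101% of the change from 0 to 48 hpi.

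**Figure D4:**
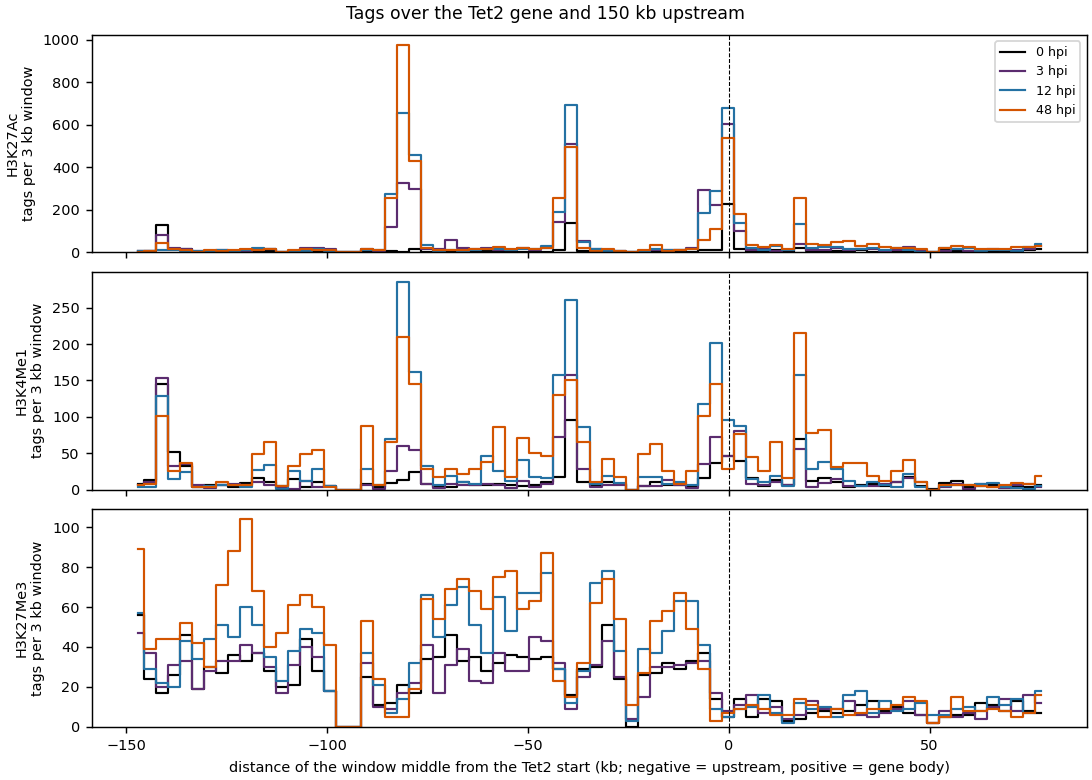
Tags per 3 kb window over the Tet2 gene and the 150 kb before it for the 3 marks at 0, 3, 12 and 48 hpi (24 hpi left out for clarity); the dashed line is the start and negative distances are upstream. H3K27Ac peaks stand near 81, 39 and 0 kb, and H3K27Me3 between them is higher at 12 and 48 hpi than at 0 and 3 hpi.

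H3K27Me3 rose between the acetylated sites of Tet2. Of the 20 windows gained in this mark in the 6 regions, 18 lay upstream of Tet2, between 12 and 141 kb before the start, and none in its gene body. They held a median of 28 tags at 0 hpi and 61.5 at 48 hpi. Over the 39 upstream windows that stayed under the H3K27Ac level minimum, H3K27Me3 tags numbered 1193, 1172, 1825, 2076 and 2256, and 38 of the 39 held more at 48 than at 0 hpi. The log2 change was 0.92 (0.82 to 1.02), 0.76 with scaling by enriched windows and 1.10 by background windows, and most of it lay between 3 and 12 hpi (0.64). In the 8 upstream windows that reached it at any time the tags numbered 163, 159, 166, 140 and 143, a log2 change of -0.19 (-0.52 to 0.14). In the gene body they went from 216 to 233. H3K27Ac was also higher at 48 than at 0 hpi in the 39 windows under the level minimum (197, 593, 509, 439 and 523 tags, log2 change 1.40) and in the gene body (200, 472, 683, 931 and 1087 tags, 2.44). The log2 changes from 12 to 48 hpi were 0.04 and 0.67, so in the 39 windows the difference lay between the 0 and 3 hpi libraries. H3K4Me1 was higher at 48 hpi in all 3 sets, by 1.55 in the acetylated windows, 1.76 in the others upstream and 1.57 in the gene body. Cells in a culture were measured together, so marks that share a region may lie in different cells.

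The Tet3 region was acetylated around its start, which fell under the level minimum at 3 hpi alone. Within the gene, the window at 59 kb rose from 21 tags at 0 hpi and 24 at 3 hpi to 71, 179 and 144, with H3K4Me1 at 12, 6, 45, 133 and 101. The windows at 29 kb in the gene and at 61 kb upstream, in an intron of Dguok, ended at 107 and 124 tags from 43 and 44. The window at 16 kb upstream was lost, with 398, 457, 311, 258 and 149 tags. Its H3K27Me3, 12, 18, 33, 14 and 37 tags, was called gained but ended at the level minimum of 37 tags. Scaling by enriched windows takes it under that minimum. The 300 bases at its H3K27Ac dip were 78.7% G or C and held 40 CG pairs, and no annotated start lies in the window. Whether Tet3 transcripts begin there was not tested. A window at 43 kb upstream, also in Dguok, went from 189 to 94 tags, at the 2-fold limit. The dip at 3 hpi was seen in the 4 windows between 4 kb upstream and 5 kb inside the gene, such as 153, 34, 80, 75 and 119 tags at 2 kb. From 12 to 48 hpi the windows at 59, 29, -61, -16 and -43 kb changed by 1.01, 0.92, 0.76, -1.06 and -0.55 on the log2 scale. The windows with the dip were the only ones of the 6 regions with such a fall, beside 0.192% of windows near genes. Most H3K27Ac at 48 hpi lay at the start of Dguok, 64 kb upstream, with 368 tags at 0 hpi and 289 at 48 hpi.

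The Tet1 region held 10 windows at the H3K27Ac level minimum, of which 7 changed less than 2-fold. Inside the gene, at 47 kb, H3K27Ac held 3, 11, 8, 9 and 89 tags, so it appeared in the 48 hpi library alone. The ratio was 29.7 (9.83 to 147), with 10 and 36 H3K4Me1 tags at 0 and 48 hpi. At 133 kb upstream, in an intron of Pbld2, the tags were 6, 9, 12, 44 and 172. H3K27Me3 covered both places at 48 tags or more at all times. A window in Rufy2, 106 kb upstream, was lost, with 91 tags at 0 and 28 at 48 hpi. From 12 to 48 hpi the gains inside the gene and in Pbld2 came to 3.32 and 3.73 on the log2 scale and the loss in Rufy2 to -0.43. The highest window at 48 hpi was at the start of Hnrnph3, with 441 and 377 tags.

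Around Dnmt1, windows were gained on both sides of a start that lost acetylation. At 8 kb inside the gene, in an intron, H3K27Ac held 21, 31, 90, 132 and 277 tags, the highest value of the region at 48 hpi, and H3K4Me1 went from 55 to 215. Its log2 change from 12 to 48 hpi was 1.61. At 13 kb upstream, in S1pr2, a sphingosine-1-phosphate receptor gene, the tags were 14, 11, 125, 374 and 238. At 7 kb upstream they were 10, 12, 77, 92 and 113. None of the 9 gained windows had passed 2-fold at 3 hpi, and 6 first did so at 12 hpi, without a share over all gained windows near genes to set beside this. The window that holds the start (189 to 48 tags) and the one at 2 kb (360 to 112 tags, -0.91 on the log2 scale from 12 to 48 hpi) were both lost. At 28 kb upstream a window fell from 165 to 26 tags, 67 by 3 hpi, and a window at 148 kb, in 1700084C06Rik, fell from 177 to 50. Between 12 and 48 hpi the gains at 13 and 7 kb came to 0.92 and 0.55 on the log2 scale, and the losses at 28, 1 and 148 kb to -0.60, -0.78 and -0.99, all under 2-fold. Of the gained windows 4 touch another gene, and of the 6 lost, 3 do.

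The Dnmt3a region lost H3K27Ac inside the gene. The intronic window at 50 kb (chr12:3855001-3858000), whose sequence is printed above, held 993, 528, 326, 202 and 179 tags, a ratio of 0.18 (0.153 to 0.212), lower at each successive time and by -0.86 on the log2 scale from 12 to 48 hpi. Its H3K4Me1 went from 233 to 167 tags, a smaller fall that background scaling turns into a rise. It gained no H3K27Me3, with 8 tags at either end. The window beside it, at 47 kb, went from 200 to 38 H3K27Ac tags and from 130 to 47 H3K4Me1 tags. Upstream, in Dtnb, a window at 25 kb held 330, 159, 125, 76 and 48. Between 12 and 48 hpi it fell by 1.36 on the log2 scale and the window at 47 kb by 0.24. One window was gained, at 62 kb in the gene, from 29 to 84 tags and by 0.98 on the log2 scale from 12 hpi, and scaling by enriched windows gives 4 gained and 4 lost. A window 67 kb upstream in Dtnb, with most H3K27Ac at 48 hpi, held 378, 209, 467, 479 and 377 tags and so ended where it began after a low value at 3 hpi.

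The Dnmt3b region had only losses among its windows called in H3K27Ac, and the largest lay far from the gene. In introns of 8430427H17Rik, the window at 138 kb upstream held 248, 69, 38, 18 and 30 H3K27Ac tags and that at 141 kb held 258, 86, 35, 20 and 32. Their H3K4Me1 held 307, 293, 247, 176 and 122 tags and 208, 184, 113, 97 and 69 tags, falls that background scaling takes under 2-fold. The order of the 2 marks cannot be told, because it would rest on the H3K27Ac libraries of 0 and 3 hpi. At 42 kb upstream, between genes, H3K27Ac went from 177 to 27 tags. These losses came early: from 12 to 48 hpi, without the 0 and 3 hpi libraries, the log2 changes were -0.33, -0.13 and -0.65, and 2 windows of the region were lost. Of the 8 lost windows, 6 first passed 2-fold at 3 hpi and 5 touch another gene, and shares over all lost windows near genes are not given here. The window with most H3K27Ac, 105 kb upstream, held 1368, 864, 1232, 1421 and 1006 tags and was not called. No window with H3K27Ac at the level minimum lay above its 0 hpi value at 48 hpi.

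**Figure D5:**
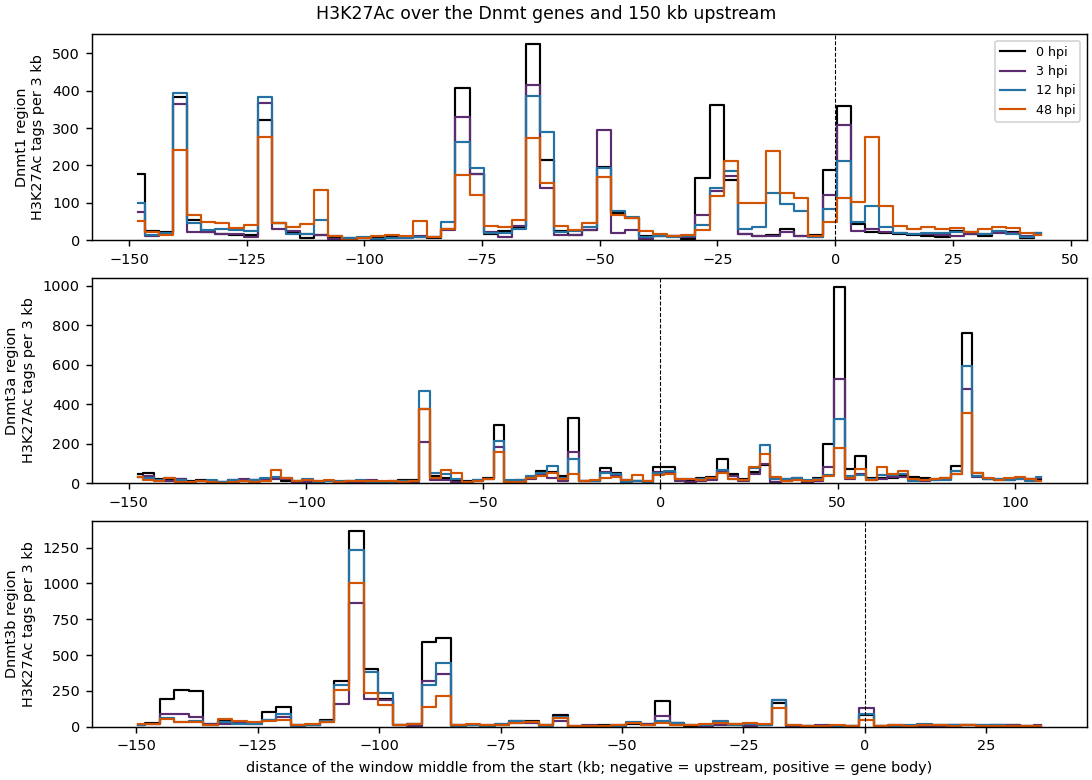
H3K27Ac tags per 3 kb window over Dnmt1, Dnmt3a and Dnmt3b and the 150 kb before each at 0, 3, 12 and 48 hpi (24 hpi left out for clarity); the dashed line is the start and negative distances are upstream. The Dnmt3a window at 50 kb goes from 993 to 179 tags and the Dnmt1 window at 8 kb from 21 to 277.

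H3K4Me1 was compared in the windows called in H3K27Ac. Of the 25 windows gained in H3K27Ac, 17 were also gained in H3K4Me1 and 24 had more H3K4Me1 tags at 48 than at 0 hpi, beside 67.6% and 94.7% of all windows gained in H3K27Ac near genes. Of the 24 lost, 10 were also lost in H3K4Me1 and all 24 had fewer tags, beside 32.3% and 91.3% of all lost windows and a median H3K4Me1 log2 change of -0.42 over all windows near genes. The losses depend on the scaling, a comparison added after the data were seen: with H3K4Me1 scaled by background windows 1 of the 24 was also lost and 17 had less, and by enriched windows 6 and 24. The gains were 23 of 25 and 19 of 25 under these scalings. None of the 25 gained H3K27Me3, beside 0.366% of all windows gained in H3K27Ac near genes. The mark was gained in 2 of the 24 lost, at 141 kb upstream of Tet2 and 16 kb upstream of Tet3, beside 0.293% of all lost windows. The Tet3 window ended at the level minimum of 37 tags after 14 at 24 hpi, and scaling by enriched windows takes it under that minimum. Summed over the 6 regions, the lost windows had covered 60.1% of their change by 3 hpi and the gained ones 38.6%, with the gained sum resting on Tet2: there 62.8% was reached by 3 hpi, while the Dnmt1 windows stood at -1.36%. The Tet2 sum includes the window known beforehand, and all these percentages use the 0 and 3 hpi libraries that stand apart. Matching percentages over all windows near genes are not given here, so these only describe the 6 regions. Between 12 and 48 hpi, without the 0 and 3 hpi libraries, 9 windows were gained in H3K27Ac and 7 lost. The share over all windows near genes was not computed for this interval, so these counts cannot be set beside a general rate.

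Other genes of the methylation pathway were described from a list of 30: 0 rose, 9 fell, 15 changed less than 2-fold and 6 lay under the level minimum in H3K27Ac at the start, beside 2.41% higher and 7.07% lower of all starts. Of all starts at the level minimum 15.7% were lower. The median log2 change of the list was -0.41. With scaling by enriched windows 7 fell. Between 12 and 48 hpi, a comparison added after the data were seen, the list had 0 higher and 2 lower starts, Uhrf1 and Idh2 (-1.10), and the other 7 of the 9 changed by -0.85 to -0.21. In H3K4Me1 0 rose and 2 fell, which background scaling turns to 2 and 0, beside 1.94% and 2.88% of all starts. In H3K27Me3 none was called. Among genes of the methyl donor and of maintenance, Uhrf1 fell as above, Hells, a chromatin remodeller needed for methylation, went from 348 to 133 tags, and Ahcy, which clears the product of methyl transfer, from 471 to 199. Among readers and their partners, Mbd3 went from 961 to 339 and Mbd4, a glycosylase that removes mismatched bases at CG sites, from 720 to 349. Among base excision repair genes, Apex1 went from 848 to 323 and Xrcc1 from 550 to 200. Idh2, which makes the 2-oxoglutarate that Tet enzymes use, went from 278 to 104. Cxxc5, a CXXC zinc finger protein, went from 621 to 161. Tdg, the glycosylase that removes oxidised methylcytosine, held 240 and 300 tags, and Gadd45a 310 and 462, neither past 2-fold.

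The genes most like each member were those with the smallest root mean square difference of log2(tags plus 1) at the start over the 15 libraries. For Tet2 they were Tmem167 (0.36), Vps4b (0.39) and Lrrk2 (0.40), and for Dnmt1 Cfl2 (0.32), Snrpe (0.34) and Haus4 (0.34). Dnmt3a was nearest to Habp4 (0.24), Tspan3 (0.24) and Erbb3 (0.28), and Dnmt3b to Tmc7 (0.34), Cpn1 (0.39) and Pcx (0.39). For Tet1 they were Dlc1 (0.35), Olfr551 (0.37) and Cacna1e (0.38). Tet3 had the most distant neighbours, Gm5331 (0.41), H2-DMb2 (0.51) and Slamf9 (0.55), and 1.06% of genes lay within a difference of 1, against 19.7% for Tet2.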

How the data were processed

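ChIP-seq tags of 3 histone marks at 5 times (15 libraries, grouped by mark and time from their labels) were used. The authors aligned reads to mm9 with Eland or Bowtie, allowed no mismatch, kept unique alignments and removed identical tags, and which aligner served which library is not given in the sources used here. The deposited files list 1 interval of 36 bp per tag, without strand, so no deposited unit such as counts or signal was used and tags were counted here. Handling of identical tags differed between files, so 1 tag per position was kept. Tags were placed at the middle of their interval and libraries were randomly reduced to the smallest of their mark (15.22 M for H3K27Ac, 10.91 M for H3K4Me1, 15.34 M for H3K27Me3). Starts were the 5′ ends of GENCODE vM1 gene records on NCBIM37, which is mm9: 0 of 259404327 tags fell on unknown bases.

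Counts were made in 3 kb around starts and on a 3 kb grid over each gene record and 150 kb upstream. Changes are log2 of tags plus 1. Intervals are exact Poisson (counts) or exact binomial (ratios) at 95%, for counting error only, and tags at different positions may still be PCR copies. With 1 library per group no test was run. Regulatory stretches were centred on the point of a window with the largest drop in H3K27Ac tags (200 bases, all times summed) below both flanks within 600 bases. Windows named are the 3 gained and 3 lost with the largest H3K27Ac change in each region and the one with most H3K27Ac at 48 hpi, and further starts at least 2 kb apart are named where they reach the H3K27Ac level minimum (the text says where others are named). The members, gene lists and marker lists were chosen with earlier results of these data known. Counting and calling were tested on simulated data. RNA, binding and methylation measurements were not used here. Python 3.11.15, NumPy 2.4.6, SciPy 1.17.1 and pandas 2.3.3 were used.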

Additional observations from a re-analysis of the deposited data

How the results depend on the processing

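No paired analysis was possible because only 1 library was made per mark and time, and no replicate could be left out for the same reason. Of the 590 values computed under 14 alternatives, 467 stayed within their counting interval or within 1.5 times the count. Of changes not called, 19 values changed sign, among them H3K27Ac at the Tet3 start (0.08 with scaling by enriched windows) and, with background scaling, H3K4Me1 at the starts of Dnmt1 (0.10) and Dnmt3a (0.67). Of called changes 4 did, all in 12 against 48 hpi, which starts after the early change and leaves out the H3K27Ac libraries of 0 and 3 hpi: the Tet2 start (-0.33), the Tet2 windows at 84 kb (-0.12) and 78 kb (-0.10) and the lost Tet2 window at 141 kb (1.65). The same comparison gave 0 higher and 1 lower start in H3K27Ac, 2 lower in H3K4Me1, 9 gained and 7 lost H3K27Ac windows, 19 and 7 H3K4Me1 windows and 4 gained H3K27Me3 windows. Shares over all windows near genes were not computed for it.

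Scaling by background windows gave 1 lower H3K27Ac start, 0 lower H3K4Me1 starts, and 89 gained and 1 lost H3K4Me1 windows. Scaling by constantly enriched windows gave 1 lower H3K27Ac start, 0 lower H3K4Me1 starts and 9 gained H3K27Me3 windows. A 6 kb start window gave 1 lower H3K27Ac and 0 lower H3K4Me1 starts, and a 1 kb window gave 0 higher H3K27Ac and 0 lower H3K4Me1 starts. With the level minimum halved, 44 H3K27Ac and 65 H3K4Me1 windows were gained, 35 H3K4Me1 and 5 H3K27Me3 windows were lost. With it doubled, 11 H3K27Ac, 15 H3K4Me1 and 6 H3K27Me3 windows were gained and 7 H3K4Me1 windows lost. A 3-fold limit left 2 lost H3K4Me1 and 1 gained H3K27Me3 window, and a shifted grid 13 gained H3K27Me3 windows. With 50 kb upstream, which covers fewer windows, 13 H3K27Ac windows were lost, 21 H3K4Me1 windows gained and 11 lost, and 5 H3K27Me3 windows gained. Apart from the construction of each setting, the cause was not tested. Low counts limit Tet1, H3K27Me3 at active starts and H3K4Me1 at most starts, where intervals span over 2-fold.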
